A study of Mus musculus with 32 samples.

Results

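A group of fat cell genes was followed here across mouse mesentery after pristane. The group has 10 named genes: the transcription regulators Pparg and Cebpa, the lipid droplet proteins Plin1 and Cidec, the lipases Lipe and Pnpla2, the glycerol channel Aqp7, the glucose transporter Slc2a4 and the receptors Adrb3 and Acvr1c. They were chosen by name, and each was read from the brightest probe set that the platform annotation ties to that symbol alone. Of the 10, 8 had such a probe set and all 8 passed the filter on dim signals, among 13016 genes tested of 18193 on the array; Plin1 and Adrb3 were not analysed here. The mesentery is the fold of peritoneum that carries fat and vessels to the gut, and pristane (TMPD) is a hydrocarbon oil that causes a lasting inflammation of the peritoneal cavity. Treated mice of the strains BALB/c and DBA and of the BALB/DBA F1 cross had 0.5 ml of TMPD into the peritoneum, and untreated mice of the same strain were the controls. The labels give no transgene or deletion in any group, and no age or sex.

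RNA came from mesentery on 32 arrays, 1 sample each, in 3 runs of title codes that were taken here as sets handled together. One run holds BALB/c, F1 and DBA at day 3 and their controls, 3 arrays in each of 6 groups. Another holds BALB/c at day 18 and its controls, 4 arrays each, and the remaining run holds DBA at day 18 and its controls, 3 arrays each. F1 was measured at day 3 only. A response here is the difference between treated mice and controls from the same strain and run. The labels do not say that every array is a separate animal. The codes of the BALB/c day 18 run contain the word mix, and 1 DBA control (replicate 3) has a code that joins a pair of numbers, so RNA pooled from several animals is possible there, which would change what n and the standard error stand for. So p-values measure the spread between these arrays, and the number of arrays limits the precision.

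In a fat cell, PPARG and C/EBP-alpha switch on and then maintain the adipocyte programme. Triglyceride is kept in a droplet whose surface proteins, perilipin 1 and CIDEC among them, control its size and its access to lipases. On adrenergic stimulation through the beta-3 receptor, ATGL (Pnpla2) and then hormone-sensitive lipase (Lipe) cut fatty acids from triglyceride, glycerol leaves through AQP7, and insulin opposes this while it brings GLUT4 (Slc2a4) to the cell surface. ALK7 (Acvr1c) is a receptor for activins and growth differentiation factors that is high in adipocytes and is known for holding lipolysis back. In whole tissue, fewer cells of a type and less RNA per cell cannot be told apart.

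Because the genes moved together in the responses described below, the 250 bases upstream of their annotated starts were read for letters linked to PPARG and C/EBP. RefSeq (GRCm38.p6) gave 14 such windows for 8 of the 10 genes, Plin1 included; Slc2a4 and Adrb3 had none in the table used. Searched on either strand were AGGTCA, the core bound by nuclear receptors, the DR1 repeat of that core (cores spaced by 1 base, as PPARG with RXR binds them, with the fourth base of each left free), TTGCNNAA, the C/EBP core, and TATAAA, the TATA box; AGGTCA can lie within the repeat. Shown are 4 windows that hold matches or carry a start of a gene used below, 5′ to 3′ on the gene's strand, with matches in capitals.
Pparg, start 3, chr6:115421816-115422065 (+): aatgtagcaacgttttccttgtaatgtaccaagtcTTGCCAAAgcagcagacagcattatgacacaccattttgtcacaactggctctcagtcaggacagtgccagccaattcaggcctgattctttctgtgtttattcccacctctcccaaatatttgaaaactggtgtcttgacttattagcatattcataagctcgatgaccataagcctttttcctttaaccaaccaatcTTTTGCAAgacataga
Cebpa, chr7:35119043-35119292 (+): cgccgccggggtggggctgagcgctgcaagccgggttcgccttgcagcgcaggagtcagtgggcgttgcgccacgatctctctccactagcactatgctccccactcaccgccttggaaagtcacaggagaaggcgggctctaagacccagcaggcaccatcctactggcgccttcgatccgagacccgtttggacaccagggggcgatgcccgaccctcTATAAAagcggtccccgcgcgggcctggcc
Cidec, start 2, chr6:113434765-113435014 (-): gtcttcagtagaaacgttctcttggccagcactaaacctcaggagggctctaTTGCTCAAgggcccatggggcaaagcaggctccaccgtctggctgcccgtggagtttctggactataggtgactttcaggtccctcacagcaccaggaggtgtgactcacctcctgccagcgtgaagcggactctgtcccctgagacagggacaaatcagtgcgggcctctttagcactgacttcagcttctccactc
Aqp7, start 2, chr4:41047963-41048212 (-): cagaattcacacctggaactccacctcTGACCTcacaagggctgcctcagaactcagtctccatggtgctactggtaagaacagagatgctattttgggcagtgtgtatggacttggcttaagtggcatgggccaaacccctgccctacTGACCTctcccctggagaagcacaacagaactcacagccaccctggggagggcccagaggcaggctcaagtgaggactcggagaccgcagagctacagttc
Start 3 of Pparg has TTGCNNAA in 2 places and start 2 of Cidec has it in 1. AGGTCA lies in 2 places before start 2 of Aqp7, both as its complement TGACCT, and Cebpa has TATAAA near its start. Over the 14 windows, AGGTCA was found in 4, of which 2 are overlapping Aqp7 windows that share a match, the repeat in 0, TTGCNNAA in 3 and TATAAA in 2. Of 32851 windows of 250 bases in the table, 14% held AGGTCA, 0.338% the repeat, 9.56% TTGCNNAA and 12.4% TATAAA. A match is a run of letters and not a measured site, and the arrays do not separate the starts of a gene.

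All 8 genes had lower mean log2 signals after pristane than in controls in each of the 5 responses. In BALB/c at day 3 all 8 fell, with a median log2 change of -1.47 against -0.01 over all genes tested; 17.2% of all genes were called lower there. In F1 at day 3, 7 of 8 fell (18% of all genes), all but Pparg. In DBA at day 3, 0 of 8 passed the test (13.4% of all genes were called lower), although every treated array lay below every control array for all 8 genes, as it did for 24.4% of all genes. At day 18 all 8 fell in BALB/c (22.2% of all genes) and in DBA (25% of all genes). The median change of the 8 was -0.99 in F1, -0.70 in DBA at day 3, -1.27 in BALB/c at day 18 and -2.19 in DBA at day 18, and that of all genes lay between -0.04 and 0.00. Every treated array lay below every control for all 8 genes in BALB/c and F1 at day 3 and in DBA at day 18, as it did for 27.6%, 26.4% and 32.9% of all genes. In BALB/c at day 18 this held for 5 of 8 (Cebpa, Cidec, Lipe, Pnpla2 and Acvr1c) and 15.1% of all genes. A gene is called, and said to have fallen or risen, where limma's adjusted p was under 0.05; changes are differences of log2(signal + 24.9), with a standard error.

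**Figure D1:**
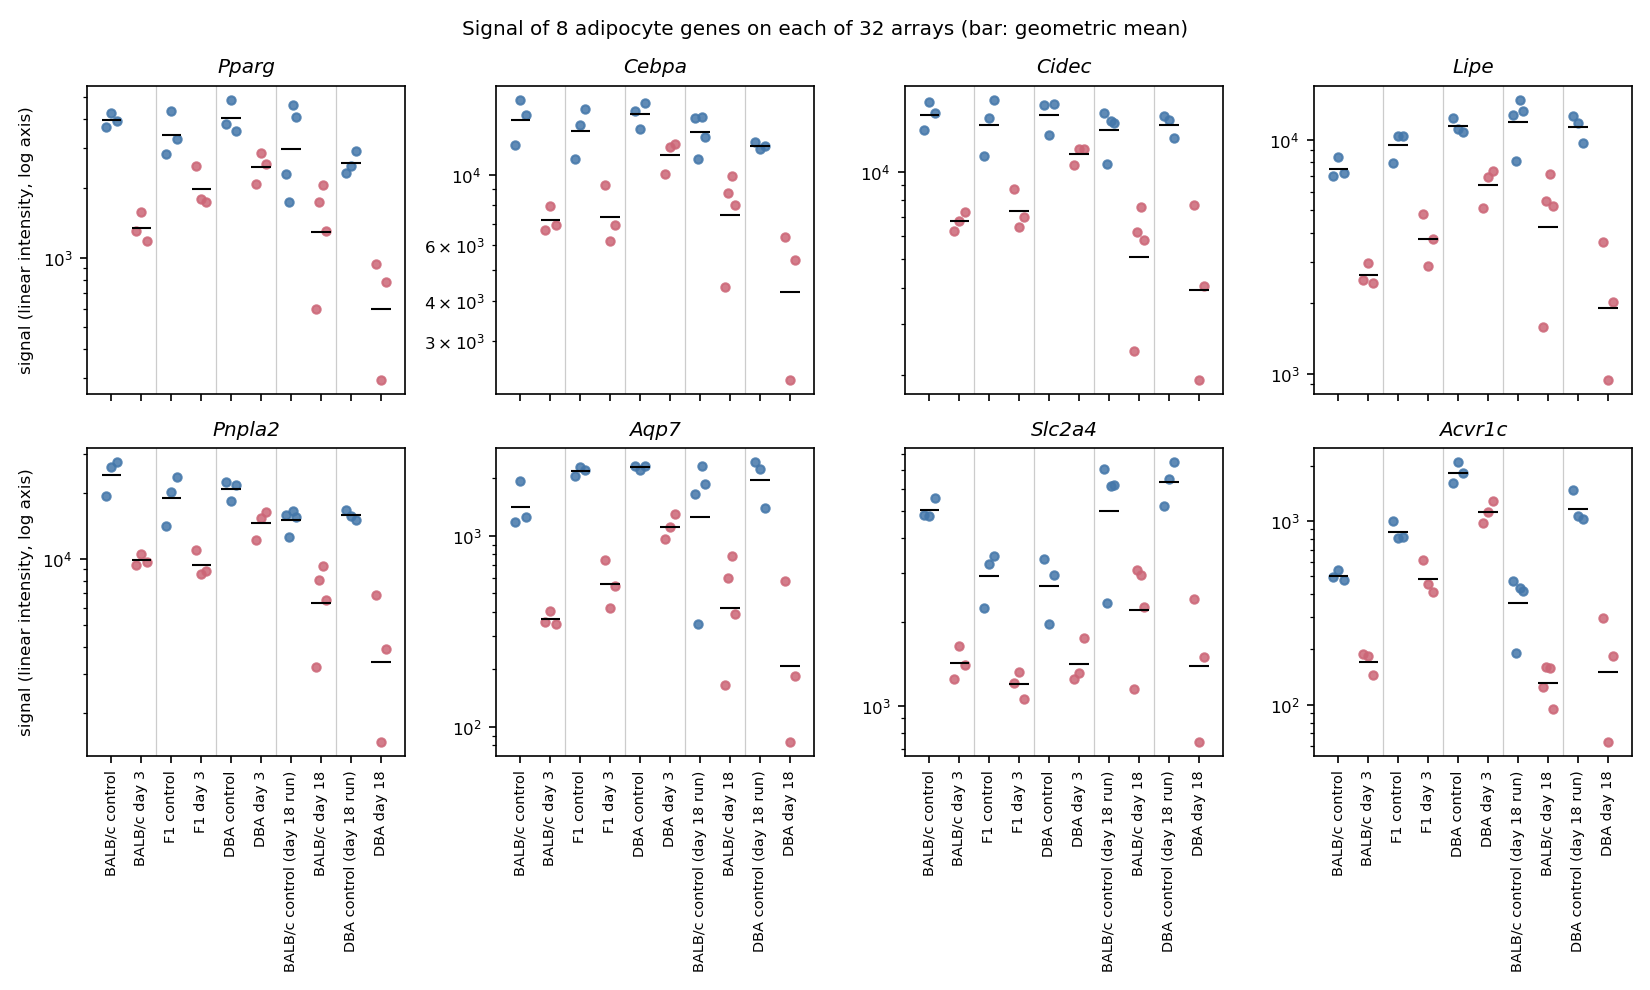
Signal of each of the 8 genes (linear intensity, log axis) on each of 32 arrays; blue points are controls, red points are treated arrays, and the black bar is the geometric mean of the group. The 3 DBA arrays at day 3 lie below their controls in every panel, and the lowest point of every panel is DBA day 18 replicate 2.

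PPARG, the nuclear receptor that directs fat cell formation, is encoded by Pparg (chr6:115360879-115490404, GRCm38.p6). In BALB/c its signal was 3689, 4270 and 3935 in the controls and 1302, 1581 and 1185 at day 3. The treated arrays were all below the controls, and the gene fell by 1.54 on the log2 scale (SE 0.37, adjusted p = 0.002). In F1 the controls read 2827, 4329 and 3270 and the treated arrays 2493, 1798 and 1752, a change of -0.78 (SE 0.37, adjusted p = 0.11). The F1 groups did not overlap, but the gap between 2827 and 2493 was small and the change was not called. DBA controls of the same run read 3810, 4846 and 3568 and the arrays at day 3 read 2091, 2847 and 2554, a change of -0.70 (SE 0.37, adjusted p = 0.17). At day 18 the BALB/c controls read 2315, 1740, 4624 and 4095 and the treated arrays 599, 1742, 2074 and 1309. Here the groups overlapped, since control replicate 2 at 1740 lay below 2 treated arrays, and the gene fell by 1.17 (SE 0.32, adjusted p = 0.0045). In DBA at day 18 the controls read 2327, 2509 and 2920 and the treated arrays 941, 295 and 784, and Pparg fell by 2.05 (SE 0.37, adjusted p = 6.0e-05). That is 4.13-fold lower, a smaller fall than that of 5 other genes of the group in that response.

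Cebpa (chr7:35119293-35121928) encodes C/EBP-alpha, which works beside PPARG to keep the mature fat cell state. BALB/c controls at 12401, 17144 and 15411 stood against 6707, 7974 and 6950 at day 3, and the gene fell by 1.04 (SE 0.27, adjusted p = 0.0035). F1 controls read 11175, 14330 and 16070 and treated arrays 9247, 6170 and 6938, a change of -0.90 (SE 0.27, adjusted p = 0.011). In DBA the values were 15832, 13881 and 16817 in controls and 10053, 12187 and 12476 at day 3, a change of -0.42 (SE 0.27, adjusted p = 0.26). Cebpa thus had the smallest fall of the 8 genes in BALB/c at day 3, and the smallest change in DBA at day 3. At day 18 it was 15067, 11229, 15197 and 13138 in BALB/c controls and 4445, 8735, 9872 and 8031 after treatment, without overlap, and it fell by 0.86 (SE 0.23, adjusted p = 0.004). DBA controls read 12672, 12037 and 12273 and treated arrays 6345, 2268 and 5391, a change of -1.52 (SE 0.27, adjusted p = 4.4e-05). It was the smallest fall of the 8 genes in both day 18 responses.

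Cidec (chr6:113424634-113435760) encodes a droplet protein that moves lipid from small to large droplets and favours a large central droplet. It read 13877, 17307 and 15867 in BALB/c controls and 6243, 6770 and 7277 at day 3, and it fell by 1.21 (SE 0.34, adjusted p = 0.006). F1 controls read 11307, 15280 and 17596 and treated arrays 8737, 6474 and 6964, a change of -0.98 (SE 0.34, adjusted p = 0.024). DBA controls read 16848, 13329 and 17026 and treated arrays 10502, 11984 and 11950, a change of -0.45 (SE 0.34, adjusted p = 0.35). At day 3 the treated DBA arrays were thus all higher than the treated arrays of BALB/c and F1, while the controls of the 3 strains overlapped. At day 18 the values were 15836, 10586, 14890 and 14659 in BALB/c controls and 2425, 6213, 7532 and 5838 after treatment, a change of -1.44 (SE 0.29, adjusted p = 2.4e-04). In DBA they were 15475, 15004 and 13015 in controls and 7707, 1930 and 4045 after treatment, a change of -1.88 (SE 0.34, adjusted p = 4.8e-05). In both strains the groups were apart at day 18. In BALB/c 1 treated array, at 2425, was far below the rest of its group, and in DBA the treated arrays were spread from 1930 to 7707.

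Lipe (chr7:25379527-25398486) encodes hormone-sensitive lipase, which cuts diglyceride. Its signal was 6955, 8455 and 7231 in BALB/c controls and 2524, 2967 and 2436 at day 3, and it fell by 1.51 (SE 0.39, adjusted p = 0.0034). F1 controls read 7950, 10394 and 10381 and treated arrays 4820, 2883 and 3780, a change of -1.34 (SE 0.39, adjusted p = 0.0085). DBA controls read 12357, 11134 and 10813 and treated arrays 5107, 6945 and 7325, a change of -0.84 (SE 0.39, adjusted p = 0.11). The treated DBA arrays overlapped the untreated BALB/c arrays. At day 18 BALB/c controls read 12796, 8083, 14761 and 13238 and treated arrays 1577, 5471, 7145 and 5186, a change of -1.49 (SE 0.34, adjusted p = 7.9e-04). DBA controls read 12614, 11722 and 9662 and treated arrays 3659, 942 and 2019. The DBA change of -2.54 (SE 0.39, adjusted p = 6.4e-06) left Lipe 5.82-fold lower.

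Pnpla2 (chr7:141455188-141460743) encodes ATGL, the lipase of the first step. BALB/c controls read 19417, 26230 and 27699 and arrays at day 3 read 9417, 10618 and 9718, a change of -1.28 (SE 0.35, adjusted p = 0.0052). F1 controls read 14154, 20189 and 23757 and treated arrays 11039, 8534 and 8830, a change of -1.01 (SE 0.35, adjusted p = 0.026). DBA controls read 22509, 18453 and 21833 and treated arrays 12257, 15482 and 16358, a change of -0.51 (SE 0.35, adjusted p = 0.29). A dimmer probe set of Pnpla2 gave -0.81 in DBA at day 3 (SE 0.29, adjusted p = 0.042) and was called, so the call there depends on the probe set. At day 18 the values were 15844, 12638, 16584 and 15594 in BALB/c controls and 3220, 8045, 9292 and 6546 after treatment, a change of -1.26 (SE 0.30, adjusted p = 0.0014). In DBA they were 16811, 15767 and 15059 in controls and 6906, 1473 and 3900 after treatment, a change of -2.21 (SE 0.35, adjusted p = 1.0e-05). The treated DBA arrays spread over a wider range than any other group for this gene on the log axis.

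Aqp7 (chr4:41033074-41048237) encodes the channel through which adipocytes release glycerol, and its falls were large in every response where it was called. BALB/c controls read 1181, 1929 and 1250 and arrays at day 3 read 353, 406 and 344, 3.69-fold lower (log2 change -1.88, SE 0.54, adjusted p = 0.0073). F1 controls read 2050, 2297 and 2201 and treated arrays 750, 420 and 550, 3.78-fold lower (log2 change -1.92, SE 0.54, adjusted p = 0.0064). DBA controls read 2322, 2202 and 2332 and treated arrays 963, 1111 and 1293, a change of -1.02 (SE 0.54, adjusted p = 0.16). The groups were far apart and the level was 2.03-fold lower, but with the error estimated over all 32 arrays the change was not called. The other Aqp7 probe set gave -0.66 there (SE 0.44, adjusted p = 0.3), also not called, and it was called lower in the other responses, from -1.89 in BALB/c at day 18 (SE 0.38, adjusted p = 2.6e-04) to -3.01 in DBA at day 18 (SE 0.44, adjusted p = 3.8e-06). BALB/c controls at day 18 read 1665, 348, 2308 and 1874 and treated arrays 166, 605, 788 and 389, a change of -1.53 (SE 0.47, adjusted p = 0.0093). Control replicate 2, at 348, lay below 3 of the 4 treated arrays; without treated replicate 1 the change was -1.12 and its adjusted p = 0.062, in a range of 4.5e-05 to 0.11 over the alternatives. DBA controls at day 18 read 2432, 2226 and 1401 and treated arrays 579, 83.5 and 184, 8.33-fold lower (log2 change -3.06, SE 0.54, adjusted p = 3.9e-05).

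Slc2a4 (chr11:69942286-69948216) encodes GLUT4, the glucose transporter that insulin brings to the surface of fat and muscle cells. It read 4830, 4779 and 5572 in BALB/c controls and 1248, 1634 and 1405 at day 3, 3.51-fold lower (log2 change -1.81, SE 0.37, adjusted p = 4.1e-04). F1 controls read 2243, 3220 and 3439 and treated arrays 1205, 1325 and 1060, a change of -1.27 (SE 0.37, adjusted p = 0.0086). DBA controls read 3358, 1960 and 2944 and treated arrays 1243, 1306 and 1743, a change of -0.91 (SE 0.37, adjusted p = 0.066). After 3 days the treated arrays of all 3 strains lay between 1060 and 1743, from control levels that differed more. A dimmer probe set of Slc2a4 gave -1.50 in DBA at day 3 (SE 0.38, adjusted p = 0.0045), which was called. At day 18 BALB/c controls read 7103, 2330, 6150 and 6207 and treated arrays 1144, 3065, 2957 and 2257, overlapping through control replicate 2, and the gene fell by 1.18 (SE 0.32, adjusted p = 0.0041). DBA controls read 5220, 6526 and 7495 and treated arrays 2411, 741 and 1500, a change of -2.17 (SE 0.37, adjusted p = 2.8e-05). Summed signals of skeletal muscle markers, another tissue that uses GLUT4, lay between 228 and 3154 over all groups, with none of the 6 markers at 0. In the DBA day 18 run they were 2016 to 3154 in controls and 873 to 1237 after treatment, where Acta1 was called lower. In the other responses these sums overlapped between treated and control arrays, though Acta1 was called lower in F1 at day 3 as well. The part of the muscle markers in the Slc2a4 values was not tested.

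Acvr1c (chr2:58267453-58357896) encodes ALK7, the receptor described above. BALB/c controls read 494, 543 and 479 and arrays at day 3 read 189, 183 and 145, a change of -1.43 (SE 0.31, adjusted p = 7.3e-04). F1 controls read 995, 812 and 815 and treated arrays 617, 452 and 409, a change of -0.81 (SE 0.31, adjusted p = 0.043). DBA controls read 1617, 2096 and 1831 and treated arrays 980, 1126 and 1281, a change of -0.70 (SE 0.31, adjusted p = 0.094). Treated DBA arrays thus stayed above untreated BALB/c arrays. At day 18 BALB/c controls read 470, 191, 430 and 415 and treated arrays 125.4, 161.3, 158.2 and 95, a change of -1.28 (SE 0.27, adjusted p = 3.7e-04). DBA controls read 1476, 1061 and 1025 and treated arrays 297, 62.8 and 184, 6.62-fold lower (log2 change -2.73, SE 0.31, adjusted p = 9.0e-08). Both other probe sets of Acvr1c also fell in DBA at day 18, by 1.20 (SE 0.27, adjusted p = 6.6e-04) and by 2.86 (SE 0.35, adjusted p = 2.6e-07). Their mean signals in BALB/c controls of the day 3 run, 42.3 and 49.4, were below the filter value of 103.7, and changes of -0.24 (SE 0.27, adjusted p = 0.55) and -0.72 (SE 0.35, adjusted p = 0.12) there at day 3 were not called.

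**Figure D2:**
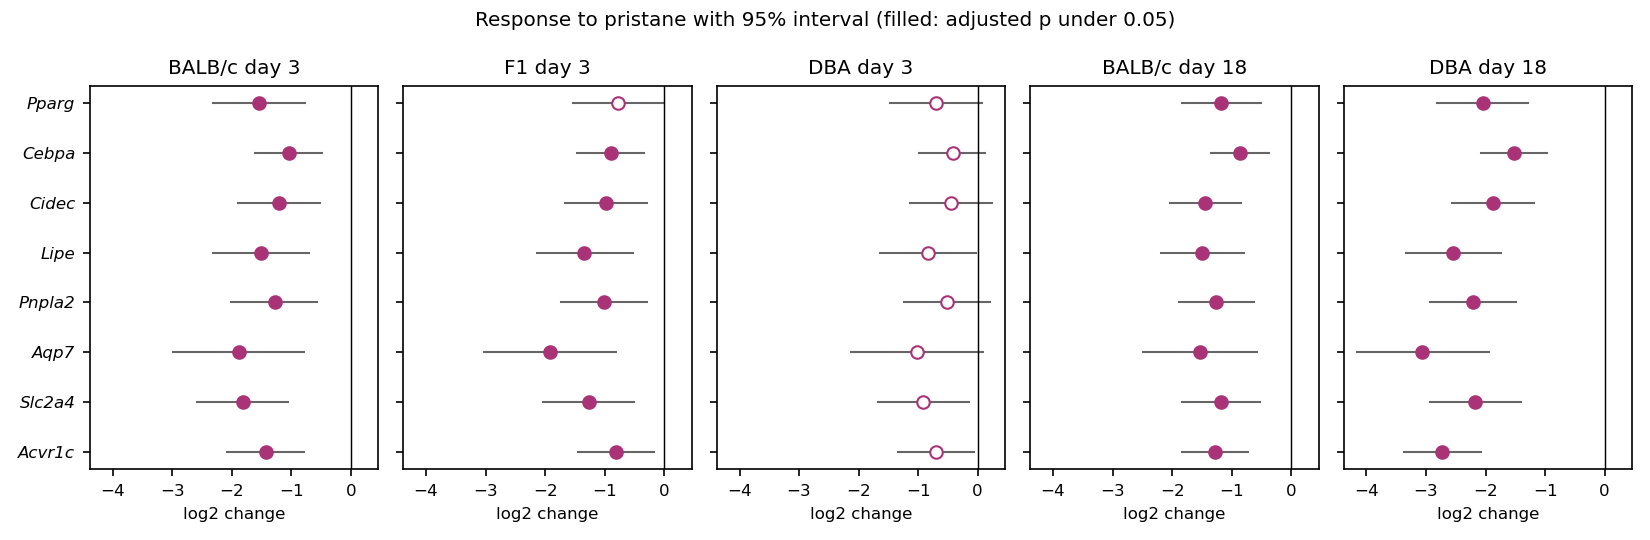
Log2 change after pristane (treated minus same-strain controls of the same run) for each gene, with the 95% interval as a line; filled points passed an adjusted p of 0.05. Every point lies left of 0, DBA at day 3 has only open points between -1.02 and -0.42, and DBA at day 18 has filled points from -3.06 to -1.52.

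The F1 calls rested on few arrays, and the count in DBA at day 3 depended on which arrays were fitted together and how they were weighted. In F1, 7 of 8 genes were called with all arrays, 3 without treated replicate 2, 4 without treated replicate 3, 4 without control replicate 2 and 3 without control replicate 3. All 3 treated F1 arrays had Xist signals between 12294 and 16808 and all 3 F1 controls between 55 and 107, with Kdm5d at 1.6 to 5.1 against 479 to 668; with a term for Xist 0 of 8 were called. The fitted changes with that term ran from -1.04 (Aqp7) to -0.38 (Pparg); Cebpa was -0.80 (adjusted p = 0.067) and Slc2a4 -1.02 (adjusted p = 0.085), near their values without it, while Aqp7 and Pparg had been -1.92 and -0.78. Treatment and this difference cannot be told apart in F1. The other groups of the day 3 run were all high in Xist, and each day 18 group held both kinds of array. In DBA at day 3, limma called 0 of 8, and 3 (Lipe, Slc2a4 and Acvr1c) had an unadjusted p under 0.05, as 39.4% of all genes did. A fit of the DBA day 3 arrays and their controls alone called 8 of 8, and weights for arrays called 5. Leaving out 1 array gave 0 to 2 calls: 2 without BALB/c control replicate 2, BALB/c day 18 replicate 1 or DBA day 18 replicate 2, and 1 without DBA control replicate 5 or DBA day 18 replicate 1. In BALB/c at day 18 a separate fit called 5 of 8.

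Responses were then compared with each other, with a test of each difference. At day 3 the brightest probe sets of all 8 genes had a less negative change in DBA than in BALB/c, by 0.62 to 0.90. Of these differences limma called 0 of 8 (0.499% of all genes), with 0 at an unadjusted p under 0.05. At day 18 all 8 had a more negative change in DBA than in BALB/c, by -0.43 for Cidec to -1.53 for Aqp7; 0 of 8 were called (0.983% of all genes) and 2, Aqp7 and Acvr1c, had an unadjusted p under 0.05. For Acvr1c that difference was -1.44 (SE 0.41, 95% interval -2.29 to -0.60, adjusted p = 0.08), from 2.43-fold lower in BALB/c to 6.62-fold lower in DBA. Without DBA day 18 replicate 1 it was -1.86 and was called, 1 of 8 genes. F1 differed from BALB/c by -0.04 to 0.76 (0 of 8 called, 0.223% of all genes) and from DBA by -0.90 to -0.08 (0 of 8 called, 2.02% of all genes), with 0 genes at an unadjusted p under 0.05 in either. These comparisons at day 3 share the arrays of a strain, and misses of the threshold do not show that the strains respond alike. Differences between responses were not tested on the other probe sets, and these did not all keep the order. Both other Acvr1c probe sets, dim in BALB/c, changed by -0.24 and -0.72 there at day 3 and by -0.55 and -0.81 in DBA. Those of Aqp7, Pnpla2 and Slc2a4 kept the day 3 order. At day 18 the other Pnpla2 probe set changed by -1.42 in BALB/c and -1.28 in DBA, while those of Acvr1c, Aqp7 and Slc2a4 kept the order.

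Between the days, the strains were tested separately. In BALB/c the day 18 response differed from the day 3 response by -0.23 to 0.63, with 0 of 8 called (0.361% of all genes) and 0 at an unadjusted p under 0.05. In DBA all 8 genes had a more negative change at day 18, by -1.10 for Cebpa to -2.04 for Aqp7, and all 8 had an unadjusted p under 0.05, as 18.4% of all genes did. After adjustment 1 of 8 was called, Acvr1c, with 1.72% of all genes called in that direction. Its response went from -0.70 at day 3 to -2.73 at day 18, a difference of -2.03 (SE 0.44, adjusted p = 0.0079). This difference was called under all 47 alternatives, with values from -2.67 to -1.51, but none of these read another probe set alone. The other Acvr1c probe sets went from -0.55 to -1.20 and from -0.81 to -2.86 in DBA, and these differences were not tested. Pnpla2 was next, at -1.69 (SE 0.50, adjusted p = 0.051), while its dimmer probe set went from -0.81 at day 3 to -1.28 at day 18. Leaving out 1 array raised the count to 6 without DBA day 18 replicate 1, to 4 without BALB/c day 18 replicate 1 or BALB/c control replicate 2, and to 2 without BALB/c day 18 replicate 3 or F1 control replicate 1. The 5 brown fat markers had summed signals of 591 to 2055 in treated DBA arrays at day 18 against 7383 to 7960 in controls, and of 1312 to 2263 against 4340 to 6211 at day 3, with none at 0. Of the 5, 4 were called lower in DBA at day 18 (25% of all genes) and 2 at day 3 (13.4% of all genes). The part of these markers in the differences between days was not tested. The days also differ in run, each with its own controls, so day and run cannot be told apart beyond that correction.

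Levels without treatment were compared within the run that holds all 3 strains. Pparg, Cebpa and Cidec were close in BALB/c and DBA controls, with differences of 0.03, 0.06 and 0.00 (SE 0.37, 0.27 and 0.34; adjusted p = 0.99, 0.96 and 1). Acvr1c was the exception among the 8: its level was 1848 ± 240 in DBA, 874 ± 105 in F1 and 505 ± 33.4 in BALB/c (SD, n = 3), without overlap between neighbours. DBA exceeded BALB/c by 1.81 (SE 0.31, adjusted p = 2.8e-04; 4.02% of all genes were called higher), and all 47 alternatives called it, from 1.72 to 2.31. F1 controls were at -0.15 from the mean of the parents on the log2 scale (SE 0.27, adjusted p = 0.94), and 0 of 8 genes were called in that comparison (0.307% of all genes), with 0 at an unadjusted p under 0.05. As given above, the F1 controls were low in Xist while the parents' controls of this run were high. Strain and this difference therefore cannot be told apart wherever F1 controls are set against parent controls, for Acvr1c and the other genes. The other probe sets of Acvr1c were also higher in DBA, by 1.75 (SE 0.27, adjusted p = 5.3e-05) and 3.36 (SE 0.35, adjusted p = 1.1e-07), so the order does not rest on 1 probe set, though a difference in sequence between the strains under the probes was not tested. In the day 18 runs, which are not compared directly, DBA controls read 1187 ± 251 (SD, n = 3) and BALB/c controls 377 ± 126 (SD, n = 4). Summed signals of 5 brown fat markers were higher in DBA controls as well, 4340 to 6211 against 1710 to 2089 in BALB/c and 2322 to 2636 in F1, with none at 0. The markers did not all move together: of the 5, 2 (Ucp1 and Cidea) were called higher in DBA than in BALB/c controls, and 1, Dio2, was called lower. The part of these markers in the Acvr1c difference was not tested.

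**Figure D3:**
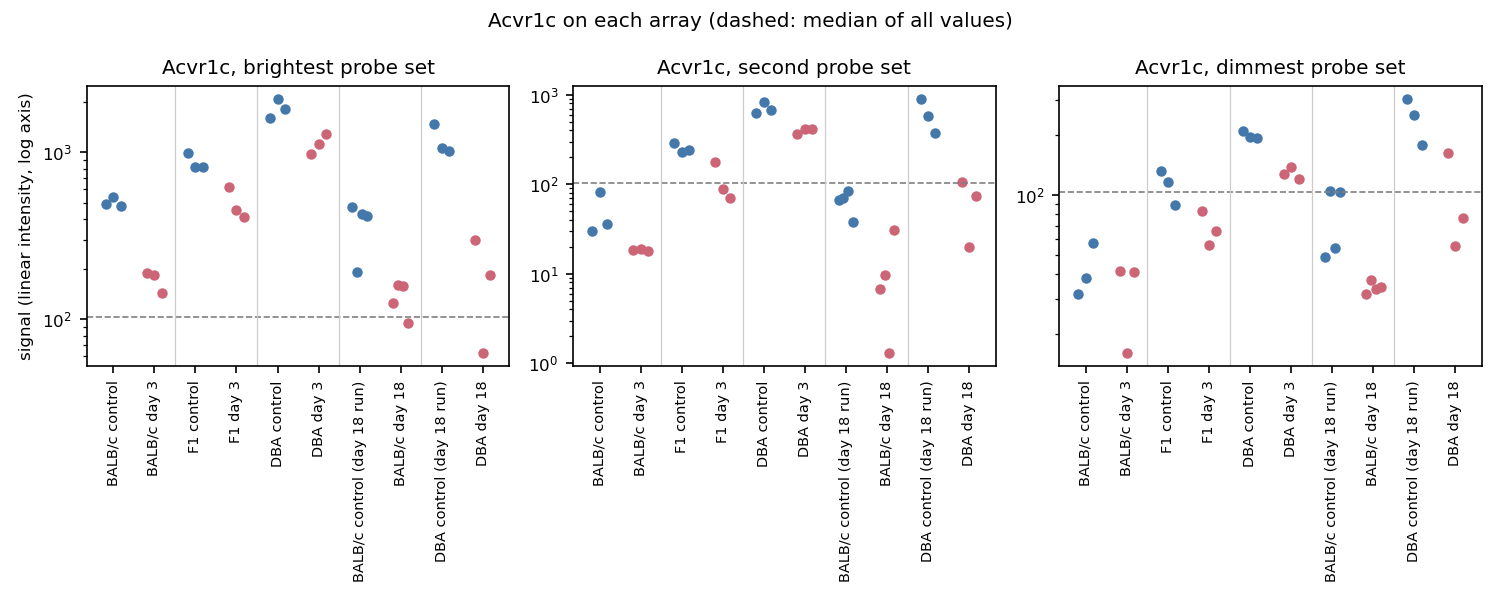
Signal of the 3 Acvr1c probe sets on each array (linear intensity, log axis), blue for controls and red for treated arrays, with the median of all values of the data set, 103.7, as a dashed line. In each panel the DBA controls are above the F1 controls and these above the BALB/c controls of the same run, and the dimmer probe sets lie below the dashed line in BALB/c at day 3.

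For Slc2a4 the order of control levels was the opposite. BALB/c controls, at 5060 ± 444, lay above F1 at 2968 ± 637 and DBA at 2754 ± 718 (SD, n = 3), and F1 and DBA overlapped. The difference of DBA from BALB/c was -0.90 (SE 0.37, adjusted p = 0.16) and was not called. DBA controls of the day 18 run, however, read 6414 ± 1142 (SD, n = 3), higher than DBA controls of the day 3 run by 1.23 (SE 0.37, adjusted p = 0.014; 13.9% of all genes were called higher). For BALB/c controls 0 of 8 were called between the runs (26.4% of all genes), and 1, Pnpla2, had an unadjusted p under 0.05. The Slc2a4 run difference in DBA was lost without DBA control replicate 3 (1.11) or DBA control replicate 5 (1.01), and the second probe set gave 0.60 (SE 0.38, adjusted p = 0.24). Summed skeletal muscle markers also differed between these DBA controls. They were 2016 to 3154 in the day 18 run and 627 to 1005 in the day 3 run, and their part was not tested. Lipe controls were ordered DBA 11435 ± 814, F1 9575 ± 1407 and BALB/c 7547 ± 798 (SD, n = 3), with a difference of 0.60 (SE 0.39, adjusted p = 0.45). Aqp7 controls were 2285 ± 72.3 in DBA and 1453 ± 413 in BALB/c (SD, n = 3) and 2050 to 2297 in F1, and DBA and F1 overlapped (difference of DBA from BALB/c 0.68, SE 0.54, adjusted p = 0.56). Pnpla2 controls overlapped between all neighbours, at 24449 ± 4419 in BALB/c, 20932 ± 2173 in DBA and 19367 ± 4854 in F1 (SD, n = 3).

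Within the day 3 run the 6 groups fell into much the same order for most genes. For Cebpa, Cidec, Lipe, Pnpla2 and Aqp7, treated DBA arrays stood apart from the treated arrays of F1 and BALB/c. They lay below every DBA control, as given above, but overlapped the group next above them, the controls of F1 or of BALB/c. How many of all genes separate the treated groups in this way was not counted. Cebpa, as an example, was 11572 ± 1323 in treated DBA arrays, 7452 ± 1601 in F1 and 7210 ± 672 in BALB/c (SD, n = 3), the last pair overlapping. For Slc2a4 the treated groups did not separate, at 1431 ± 273 in DBA, 1429 ± 194 in BALB/c and 1197 ± 133 in F1 (SD, n = 3). Aqp7 separated all 3 treated groups, at 1122 ± 165 in DBA, 573 ± 167 in F1 and 367 ± 33.7 in BALB/c (SD, n = 3). Acvr1c did so too, and its controls were also apart between strains.

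The 8 genes varied together from array to array within groups. DBA day 18 replicate 2 had the lowest signal of its group for 8 of 8 genes and BALB/c day 18 replicate 1 for 7 of 8. Among controls, BALB/c control replicate 2 was lowest of its run for 8 of 8 and F1 control replicate 1 for 7 of 8, and DBA day 3 replicate 1 was lowest for 8 of 8. Over 28 pairs of genes and 32 arrays, Pearson's r of log2 signal lay between 0.35 (Slc2a4 with Acvr1c) and 0.97, with a median of 0.87. For deviations from the mean of each group in its run, r was 0.64 to 0.97 with a median of 0.81, and 0.50 to 0.97 with a median of 0.83 without BALB/c control replicate 2. The points share arrays and tissue, so these are descriptions. That control array stands apart: its summed signal of 7 pancreatic acinar markers was 828970, against 897 to 15845 in the other controls of its run, and treated arrays of that run reached 125131 (BALB/c day 18 replicate 4). The same control had the highest sum of the 5 other fat cell markers in its run, 248418 against 90705 to 97939, although all 8 genes were lowest on it; the part of either sum in these values was not tested. Outside the group of 10, the 8 tested genes whose log2 signals followed the mean of the 8 standardised genes most closely over 32 arrays were Aoc3, Cmbl and Mgll (r = 0.98), and Mmd, Plaat3, Tmem120b, Tdrp and Fgfrl1 (r = 0.97).

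Other transcription regulators of the fat cell were called lower more often than higher in each response, but most of them were not called in F1 and in DBA at day 3. The share of all genes called higher, for reading these lists, at day 3 was 18.3% (BALB/c), 18.6% (F1) and 16.4% (DBA), and at day 18 it was 21.7% (BALB/c) and 22.4% (DBA). The share called lower was 17.2%, 18% and 13.4% at day 3 and 22.2% and 25% at day 18, in the same order. Of 12 tested, 8 were lower and 2 higher in BALB/c at day 3, 4 and 0 in F1, 3 and 0 in DBA at day 3, and 8 and 2 in both strains at day 18. The median change of the list was -0.75 in BALB/c at day 3 and -0.94 in DBA at day 18. Cebpd, which acts early in fat cell formation and in inflammation, rose by 1.66 in BALB/c at day 3 (SE 0.25, adjusted p = 7.8e-06), and Cebpb was the other regulator called higher, at 0.71 (SE 0.27, adjusted p = 0.043). Klf15, a regulator of mature fat cell metabolism, changed by -1.46 (SE 0.32, adjusted p = 7.4e-04). Ebf2 and Ebf1, factors of early fat cell commitment, changed by -1.40 (SE 0.30, adjusted p = 7.1e-04) and -1.35 (SE 0.28, adjusted p = 5.1e-04). In DBA at day 3, Klf15 fell by 1.32 (SE 0.32, adjusted p = 0.0026), while Ebf1 and Ebf2 had values of -0.22 and -0.46 (adjusted p = 0.6 and 0.27). The F1 count of falls was 0 with the term for Xist and 8 with a separate fit or array weights, and the DBA day 3 count was 6 with either of these fits. The BALB/c day 18 count was 5 with a separate fit. The F1 count was 2 without treated replicate 2, control replicate 2 or control replicate 3, and the DBA day 3 count was 5 without BALB/c control replicate 2. In BALB/c at day 3 the count of rises was 1 without any 1 of its 6 arrays, and in DBA at day 18 it was 1 without treated replicate 2 or control replicate 1.

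Of 11 further lipid droplet and caveola genes tested, 6 fell in BALB/c at day 3, 8 in F1, 5 in DBA at day 3, 8 in BALB/c at day 18 and 9 in DBA at day 18. Only Plin3 was called higher, in F1 and in DBA at day 18, and these calls were lost in 29 and 5 of 47 alternatives. The DBA day 3 count was 3 without treated replicate 1 or 2 or control replicate 4 or 6. Fitm2, needed for droplet budding, fell in each of the 5 responses, from -0.99 in DBA at day 3 (SE 0.28, adjusted p = 0.0085) to -2.13 in DBA at day 18 (SE 0.28, adjusted p = 7.2e-07). Plin4, a droplet coat protein, fell by 1.22 in BALB/c at day 3 (SE 0.29, adjusted p = 0.0015) and had a value of -0.05 in DBA at day 3 (SE 0.29, adjusted p = 0.92). Cav1 and Cavin2, parts of the caveolae that are abundant in fat cells and in endothelium, each fell by 1.04 in BALB/c at day 3 (adjusted p = 3.1e-04 and 3.7e-05). Summed signals of 5 endothelial markers were also lower in treated BALB/c arrays at day 3, 4177 to 4727 against 6791 to 8663, with none at 0. The sums were lower without overlap in F1 and in DBA at both days too, with 3952 to 5436 against 8669 to 10074 in DBA at day 18. In BALB/c at day 18 they overlapped. Of the 5, 3 were called lower in BALB/c at each day, 4 in F1, 2 in DBA at day 3 and 5 in DBA at day 18. The part of these markers was not tested.

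Among 13 tested lipolysis enzymes, cofactors and receptors, 8 fell and 1 rose in BALB/c at day 3 and in F1, 3 fell and 1 rose in DBA at day 3, 9 fell and 1 rose in BALB/c at day 18, and 9 fell and 2 rose in DBA at day 18. Aqp3, another channel that carries glycerol, rose by 3.19 in BALB/c at day 3 (SE 0.38, adjusted p = 3.3e-07) and was called higher in all 5 responses, with values from 2.03 to 3.19. It moved opposite to Aqp7 in the 4 responses where Aqp7 was called. Npr3, the clearance receptor for natriuretic peptides, fell by 2.40 in BALB/c at day 3 (SE 0.65, adjusted p = 0.005) and had a value of -0.52 in DBA at day 3 (SE 0.65, adjusted p = 0.6). Hcar1, the lactate receptor that restrains lipolysis, fell by 1.68 (SE 0.43, adjusted p = 0.0034), and Prkar2b, a regulatory subunit of protein kinase A, by 1.57 (SE 0.40, adjusted p = 0.0031). Both were called lower in 4 of 5 responses, and in DBA at day 3 their values were -0.91 and -0.72 (adjusted p = 0.12 and 0.19). With a separate fit the count of falls was 7 in DBA at day 3 and 5 in BALB/c at day 18. Array weights gave 6 in DBA at day 3, and the term for Xist gave 5 in F1, where the calls of Npr3, Hcar1 and Prkar2b were lost.

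In the insulin and glucose uptake list, falls outnumbered rises in each response, and Slc2a1 was the gene that rose. Of 8 tested, 5 fell and 1 rose in BALB/c at day 3 and in F1, 3 and 1 in DBA at day 3, and 6 and 1 in both day 18 responses. Trarg1, which regulates GLUT4 traffic, fell by 1.89 in BALB/c at day 3 (SE 0.40, adjusted p = 6.2e-04), Irs1, an insulin receptor substrate, by 1.41 (SE 0.29, adjusted p = 4.1e-04), and Pik3r1, a regulatory subunit of PI3 kinase, by 0.96 (SE 0.28, adjusted p = 0.0075). In F1 the count of falls was 3 without control replicate 2, and in DBA at day 3 it was 1 without a term for the run. The call of Pik3r1 in BALB/c at day 3 was lost without treated replicate 3. Slc2a1, which encodes the widely expressed transporter GLUT1, rose by 0.96 (SE 0.19, adjusted p = 3.1e-04) and was called higher in all 5 responses, up to 1.63 in DBA at day 18. GLUT4 and GLUT1 messages therefore changed in opposite directions wherever Slc2a4 was called.

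Around Acvr1c, the activin list had genes called in both directions, with list medians from -0.12 to 0.17. Of 11 tested, 3 rose in every response (Gdf3, Acvr1b and Smad3), while 4 fell in BALB/c at day 3, 3 in F1, 1 in DBA at day 3, 3 in BALB/c at day 18 and 4 in DBA at day 18. Of all genes, 17.2%, 18%, 13.4%, 22.2% and 25% were called lower in these responses, and 16.4% to 22.4% higher. Such small counts do not set the list apart from all genes. Gdf3, a ligand of ALK7, rose by 1.15 in BALB/c at day 3 (SE 0.33, adjusted p = 0.0075) and by 2.41 at day 18 (SE 0.29, adjusted p = 1.7e-07). Acvr1b, the related activin receptor ALK4, rose by 1.17 in BALB/c at day 3 (SE 0.18, adjusted p = 1.8e-05) and by 1.81 in DBA at day 18 (SE 0.18, adjusted p = 1.3e-08), where Acvr1c fell by 2.73. Inhbb, which encodes the activin B subunit, and Fst, which encodes the activin binder follistatin, fell by 1.10 (SE 0.38, adjusted p = 0.026) and 0.80 (SE 0.20, adjusted p = 0.0029) in BALB/c at day 3. Leaving out BALB/c day 3 replicate 2 ended the calls of Gdf3 and Inhbb there, and leaving out BALB/c control replicate 6 that of Inhbb. Macrophage markers, described next, were higher in the same arrays, and their part in the rise of Gdf3 and Acvr1b was not tested. With the stricter dim filter the count of falls was 2 in BALB/c at day 3 and in DBA at day 18, 1 in BALB/c at day 18 and 0 in DBA at day 3. In F1 it was 1 with the term for Xist, with median centring, or without treated replicate 3 or control replicate 3, and the count of rises was 1 with the mean over probe sets. In DBA at day 3 the count of falls was 0 with a separate fit, 2 or 3 with no run term, no variance trend, the mean over probe sets or array weights, and 0 without treated replicate 2 or 3 or control replicate 5 or 6, and 2 without DBA day 18 replicate 2. In BALB/c at day 18 it was 5 with array weights or without control replicate 2.

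**Figure D4:**
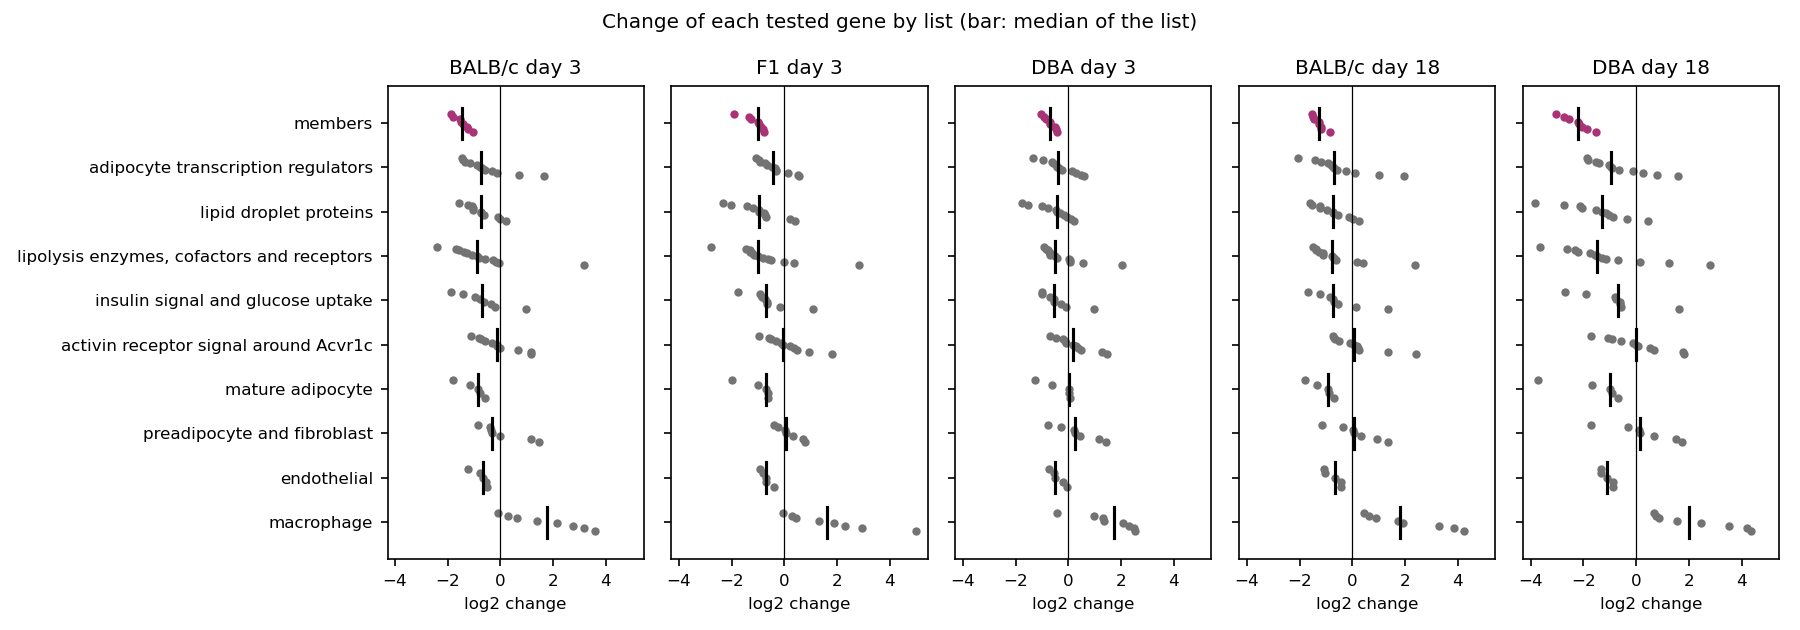
Log2 change of each tested gene (points) by list and response, with the median of the list as a black bar; the 8 genes of the group are purple. The 8 genes lie left of 0 in each panel with medians from -2.19 to -0.70, while macrophage markers lie mostly to the right with medians from 1.60 to 1.99.

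Markers of other cells moved with the treatment. Of 8 macrophage markers, 6, 6, 7, 8 and 8 rose in BALB/c, F1 and DBA at day 3 and in BALB/c and DBA at day 18. Their summed signal was 44307 to 56364 in treated BALB/c arrays at day 3 against 25236 to 29639 in controls, and 55071 to 68706 against 21432 to 27651 in DBA at day 18, with none at 0. All 5 neutrophil markers rose in BALB/c at day 3, from sums of 582 to 686 in controls to 20274 to 34138. The sum of 7 preadipocyte and fibroblast markers was 60119 to 63794 in treated DBA arrays at day 3 against 37555 to 40956 in controls, and 46285 to 59099 against 34166 to 37664 in DBA at day 18. In BALB/c at both days and in F1 these sums overlapped between treated and control arrays. Of the 7, 2 (Pdgfra and Col1a1) were called higher in DBA at day 3 and in BALB/c at both days, and Pdgfra alone in F1. Dlk1 was called lower in BALB/c at both days. In DBA at day 18, 3 were called higher and 1, Dlk1, lower. The list medians were 0.27 and 0.13 in DBA at day 3 and day 18, -0.32 and 0.07 in BALB/c, and 0.05 in F1. Of 5 other fat cell markers, among them Fabp4, which the lipolysis list also holds, 2 fell in BALB/c at day 3, 1 in F1, 1 in DBA at day 3, 5 in BALB/c at day 18 and 4 in DBA at day 18, with medians of -0.85, -0.71, 0.04, -0.91 and -0.98. A separate fit called 5 in BALB/c at day 3, 2 in F1 and 1 in BALB/c at day 18. Array weights called 5 in BALB/c and F1 at day 3, the mean over probe sets 4 and 3, and the acinar term 4 and 5. The term for Xist gave 2 in F1, an ordinary linear model 0 in F1, and quantile normalization 1 in BALB/c at day 3. The BALB/c day 3 count was 5 without BALB/c control replicate 2, 4 without DBA day 18 replicate 2, 1 without treated replicate 3, and 0 without treated replicate 1 or 2 or control replicate 6 or 7. The F1 count was 5 without BALB/c control replicate 2, 3 without F1 control replicate 1, 2 without any 1 of the DBA day 18 arrays, and 0 without treated replicate 3 or control replicate 2 or 3. The DBA day 3 count was 0 without treated replicate 1 or control replicate 6. The day 18 counts were 2 in BALB/c without treated replicate 1, 3 without treated replicate 4 or control replicate 2, and 2 in DBA without treated replicate 2. Adipoq, which encodes adiponectin, fell by 0.85 in BALB/c at day 3 (SE 0.29, adjusted p = 0.023) and had a value of 0.04 in DBA at day 3 (SE 0.29, adjusted p = 0.94), where all 8 genes of the group had values of -0.42 or lower. The summed signal of the fat cell markers was 103041 to 110247 in treated DBA arrays at day 3 and 99750 to 129851 in the controls. None of these markers was at 0 on all arrays of a group. The ratio of 3′ to 5′ actin probe sets was also lower in treated than in control arrays in each response, for example 1.88 ± 0.30 against 2.42 ± 0.275 in BALB/c at day 3 and 1.19 ± 0.0368 against 1.29 ± 0.047 in DBA at day 18 (SD, n = 3). The part of these markers and of the actin ratio in the fall of the 8 genes was not tested.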

How the data were processed

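Mesentery RNA, 1 µg, was hybridised to 32 Affymetrix Mouse Genome 430 2.0 arrays. The deposited values are linear MAS5 signal intensities for 45101 probe sets, scaled by the authors to a 2% trimmed mean of 500 on every array as the values show, with GCOS and MAS5 per the submitters' processing notes (their versions are not given in these sources). Array medians lay between 90.6 and 135.3, and 13 values were 0. The members and all gene lists were chosen with earlier results of these data known.

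From these intensities log2(signal + 24.9) was computed, the offset being the 25th percentile of all values. A gene was read from its brightest single-symbol probe set and tested if that exceeded 103.7, the median of all values, on at least 3 arrays. limma 3.58.1 in R 4.3.3 fitted 1 model over 32 arrays with 10 levels of group within title code run and an intensity trend, and p-values were adjusted by Benjamini-Hochberg over 13016 genes (for other probe sets, over all probe sets past the filter). Replicate numbers follow accession order and pair nothing. From each pathway list up to 4 genes with the largest called change in BALB/c at day 3 were named; Cebpb, Plin3, Smad3 and Adipoq were named after their values were seen. Data were simulated for 13016 genes with independent noise, with 100 genes changed by 1 and 100 by 2 on the log2 scale. In the BALB/c day 3 comparison, 70% of changes of 1 and 97% of changes of 2 were recovered, with 4.57% false calls. Over the 5 responses these shares ran from 66% (F1) to 74% and from 95% to 100%. False calls ran from 3.33% (BALB/c day 18) to 7.43% (F1). Many more genes were called in the measured responses, and genes there vary together, so these shares need not hold for them. Alternatives were other offsets, filters, scalings, models and probe sets, terms for Xist and for pancreatic markers, and each array left out; those on pathway lists and named pathway genes were added after seeing the data. The number of arrays limits the precision.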

Additional observations from a re-analysis of the deposited data

Results flagged for a closer look

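An array far from the others was looked for in 32 cases: each of the 8 genes in 7 BALB/c controls, in the 4 BALB/c controls of the day 18 run alone, in 4 BALB/c arrays at day 18 and in 6 DBA controls, a check that chance flags in about 1 in 20 groups. Aqp7 in DBA controls had its lowest array, replicate 3, at 1401, with the next at 2202 and the highest at 2432 (n = 6, over both DBA runs). Acvr1c in BALB/c controls had its lowest array, replicate 2, at 191, with the next at 415 and the highest at 543 (n = 7, over both BALB/c runs); this is the array with the high pancreatic signal, whose part in the value was not tested. The response of Acvr1c in DBA differed between the days by the test of the difference itself, with a value of -2.03 on the log2 scale for day 18 minus day 3.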

How the results depend on the processing

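Over 47 alternatives, 32 of which left out 1 array, all 8 genes were called in BALB/c at day 3 and in DBA at day 18. No called change of the 8 genes reversed its sign: of 5633 checks 5417 kept their side of the threshold and direction, 76 gained a call, 40 lost one and 100 changes of sign concerned uncalled values. A separate fit per comparison called 8 genes in DBA at day 3, 5 in BALB/c at day 18, 2 for DBA minus BALB/c at day 3, 4 for DBA minus BALB/c controls and 5 for DBA controls between runs. Without a term for the run, 1 was called in DBA at day 3 and 7 for DBA day 18 minus day 3. Array weights gave 5 in DBA at day 3, 1 for DBA minus BALB/c at day 18, 8 for DBA day 18 minus day 3, 2 for DBA minus BALB/c controls, 2 for DBA controls between runs and 1 for BALB/c controls between runs. The mean over probe sets gave 2 in DBA at day 3 and 0 for DBA controls between runs. The Xist term gave 0 in F1, 2 for DBA day 18 minus day 3 and 0 for DBA controls between runs. Quantile normalization gave 1, and the acinar term 1, for DBA minus BALB/c at day 18, and the acinar term and the stricter filter each gave 2 for DBA day 18 minus day 3. Leaving out 1 array gave 3 to 7 calls in F1, 0 to 2 in DBA at day 3, 7 to 8 in BALB/c at day 18, 0 to 1 for DBA minus BALB/c at day 18, 1 to 6 for DBA day 18 minus day 3, 0 to 1 for BALB/c controls and 0 to 2 for DBA controls between runs. The cause of these shifts was not tested. Of 4690 checks of named pathway genes, 71 lost a call and 38 gained one. Signals below 103.7 limit the dimmer Acvr1c probe sets in BALB/c. No paired analysis was possible because the replicate numbers follow accession order and the labels pair no arrays.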
